A study of Oryza sativa with 6 samples.

Results

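Broad domains of HMG-GFP on rice chromatin were regions where the peak lists of immunoprecipitate (IP) replicates 1 and 2 each held a peak of at least 10 kb at the same place. HMG-GFP joins OsHMGB1, a chromatin protein of rice from the high mobility group B (HMGB) family, to green fluorescent protein (GFP). Chromatin immunoprecipitation sequencing (ChIP-seq) with an antibody against GFP mapped it in leaf blades of transgenic seedlings grown for 28 d under HP conditions, an abbreviation that the labels leave unexplained. A broad peak of replicate 1 had to overlap a broad peak of replicate 2 by at least 1 bp on chromosomes 1 to 12, and overlapping pairs were merged. This gave 681 domains, against 51427 regions that replicates 1 and 2 shared at any width. The 6 samples are 3 IPs and 3 inputs (sheared chromatin without antibody), all from HMG-GFP plants. Each IP has a peak list, whereas values of the inputs and IPs from plants without the fusion were not analysed here. The promoter of the fusion, the number of transgenic lines and whether replicates came from separate plants are not stated in the labels.

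HMGB proteins are abundant non-histone proteins of the nucleus that bind DNA with little sequence preference and bend it. A peak is a place where the IP yielded more sequence than its background, and most peaks in these lists were far narrower than 10 kb. Rice centromeres, from which the placement of the domains was measured, are built from arrays of the CentO satellite repeat and from retrotransposons, and carry nucleosomes with the centromeric histone CENH3. The flanking pericentromeric chromatin is largely condensed and poor in genes, and the arms are gene-rich.

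The following limits of the lists bear on all values. Replicate 3 stood apart from the others: its list held 41474 peaks on the 12 chromosomes and covered 21.6% of their span, against 60035 and 56812 peaks and 31.7% and 32.1% in replicates 1 and 2. The lists give no read counts, so the depth of each library is unknown. The 3 IPs are 1 group, so no test between groups of samples was possible, and domains of one genome are not replicates of a condition: shares and correlations are given as descriptions, with Wilson intervals that cover counting error only.

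The domains were chosen on peak width, so their number and width in replicates 1 and 2 are a description. Peaks of at least 10 kb made up 1.6% of the replicate 1 list (958 peaks), 1.56% of the replicate 2 list (884) and 0.379% of the replicate 3 list (157). Of these, 689 in replicate 1 and 694 in replicate 2 fell into domains, and 664 of the 681 domains joined exactly 1 broad peak of each list. The domains covered 11.1 Mb, or 2.97% of the 373 Mb spanned by the lists. Their median width was 14200 bp, with quartiles of 12800 and 17600 bp. Most domains thus lay close above the limit, and a short tail was much wider: 112 measured at least 20 kb, 32 at least 30 kb and 3 at least 50 kb. At the limit itself, the 24 pairs whose shorter peak measured 10000 bp had median folds of 2.06 and 1.51 in replicates 1 and 2, and the 31 pairs just outside it, at 9800 bp, had 2.32 and 1.5. Replicate 3 covered 7.10% of the bases of the pairs inside the limit and 17.9% of those outside it.

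Broad peaks that one of the lists held outside the domains were mostly broken up in the other list. Of the 269 such peaks of replicate 1, 226 met 2 or more replicate 2 peaks and 11 met none. Of the 190 such peaks of replicate 2, 167 met 2 or more replicate 1 peaks and 0 met none. Replicate 2 covered 78.9% of the bases of the first set and replicate 1 covered 84.3% of the second. A broad peak of one list was therefore usually occupied in the other even where it was not one unbroken peak there.

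The edges of the domains were close in the 2 lists that chose them. Peak positions lie on a grid of 200 bp. The start was the same to the base in 392 domains (57.6%) and the end in 358 (52.6%), and both edges lay within 1 kb of each other in 463 (68.0%). Both edges were the same in 221 domains (32.5%), against 53.9% of all regions shared by replicates 1 and 2. The widest domain with the same edges in both lists was one of 49000 bp on chromosome 12, from 12014601 to 12063600.

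The fold within the domains was below that of most peaks, as it was in other wide peaks. The fold enrichment, a linear ratio that the authors give for each peak, had a median over domains of 2.29 in replicate 1 and 1.57 in replicate 2, taking the highest fold of the broad peaks in a domain. The median of all peaks was 2.84 and 2.17 in the same lists, and that of peaks of 5 to 10 kb was 2.192 and 1.72, so the domains lay above peaks of 5 to 10 kb in replicate 1 and below them in replicate 2. The fold of 632 domains (92.8%) in replicate 1 and of 651 (95.6%) in replicate 2 lay below the median of the list. Among domains the wider ones had somewhat lower folds (Spearman rho between width and fold -0.26 in replicate 1 and -0.23 in replicate 2, n = 681 domains). Width and fold come from the same peaks, and the highest fold in a domain was 3.98 in replicate 1 and 3.08 in replicate 2.

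Replicate 3, which had no part in the choice, had a peak in 270 of the 681 domains, 39.6% (Wilson 95% interval 36.0% to 43.4%). Of all regions shared by replicates 1 and 2, 73.8% held a replicate 3 peak, a higher share although the domains are wider and offer more room for an overlap. Replicate 3 covered 50% or more of 46 domains, 6.75% (5.10% to 8.89%), against 66.9% of all shared regions. By bases, replicate 3 peaks lay over 1.1 Mb of the domains, 9.90% of their length. In the shared regions outside the domains the covered share was 55.9%. These shares come from 1 library, and the intervals cover counting error only, so they are no test of the difference. The compared sets also differ in width: 29694 of the 50746 shared regions outside the domains were under 2 kb wide.

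The drop in replicate 3 coverage with width began well below 10 kb and was not particular to the domains. Of the bases in other shared regions, replicate 3 covered 71.5% at widths under 2 kb, 60.1% from 2 to 5 kb and 39.1% from 5 to 10 kb. Domains of 10 to 15 kb were covered to 10.3%, and the 464 other shared regions of that width to 15.3%. Those other regions hold no overlapping pair of peaks of at least 10 kb, but may hold such a peak of a single list. Domains of 15 to 20 kb were covered to 12.7%, those of 20 to 30 kb to 8.81% and the 32 of 30 kb or more to 3.18%. At this width the domains and the other shared regions thus differed by far less than either differed from narrow regions.

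**Figure D1:**
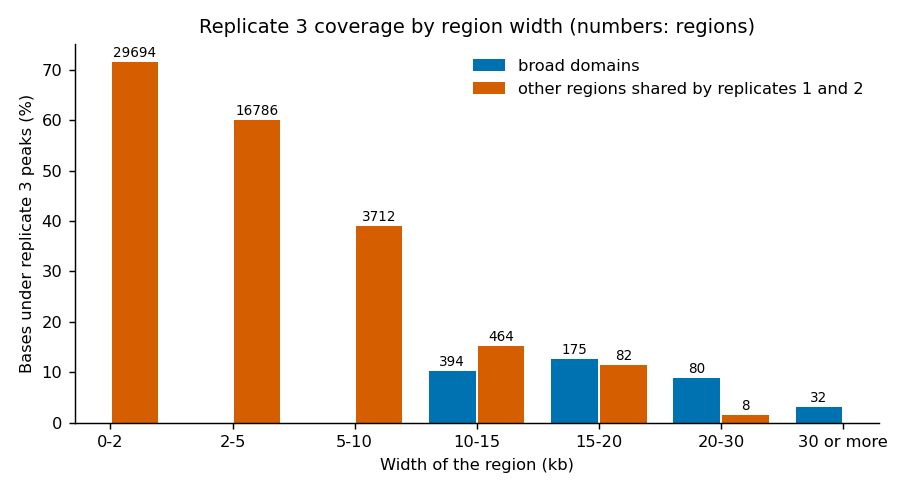
Percentage of bases under replicate 3 peaks (vertical axis, linear) by width of the region in kb, for broad domains (left bar of a pair) and other regions shared by replicates 1 and 2 (right bar), with the number of regions above each bar. Coverage was 71.5% in other regions under 2 kb and 3.18% in domains of 30 kb or more; the class of 20 to 30 kb has 8 other regions.

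Where replicate 3 did have signal in a domain, it was mostly a short stretch. Of the 270 domains met, 202 held 1 replicate 3 peak, 60 held 2 and 8 held 3. The median share covered among them was 16.2%. The 345 replicate 3 peaks involved had a median width of 2600 bp, against 1600 bp for the whole replicate 3 list, and 231 of them lay wholly inside the domain. Their median fold was 1.92, against 2.03 for the whole list. A wide peak meets a domain more easily than a narrow one, and the median replicate 3 peak was still far short of the domains themselves.

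Replicate 3 signal stood towards the edges of the domains and was lowest in their middle. Replicate 3 covered 18.3% of positions in the outermost 10% at each edge of the domains and 6.94% in the middle 20%, whereas the 20 kb on both sides were covered to 19.3%. Replicates 1 and 2 covered 35.1% and 34.7% of the same flanks. Set against 50 kb of flank on both sides, replicate 3 covered less of the domain than of its flanks in 542 of 681 domains (79.6%) and more in 120. The 411 domains without any replicate 3 peak count among the 542 wherever their flanks held one, so the count largely restates that lack. For the 3712 other shared regions of 5 to 10 kb the share with less inside than outside was 44.2%. The mean covered share was 10.7% inside the domains and 19.6% in their flanks, against 40.3% inside and 22.4% beside the regions of 5 to 10 kb.

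**Figure D2:**
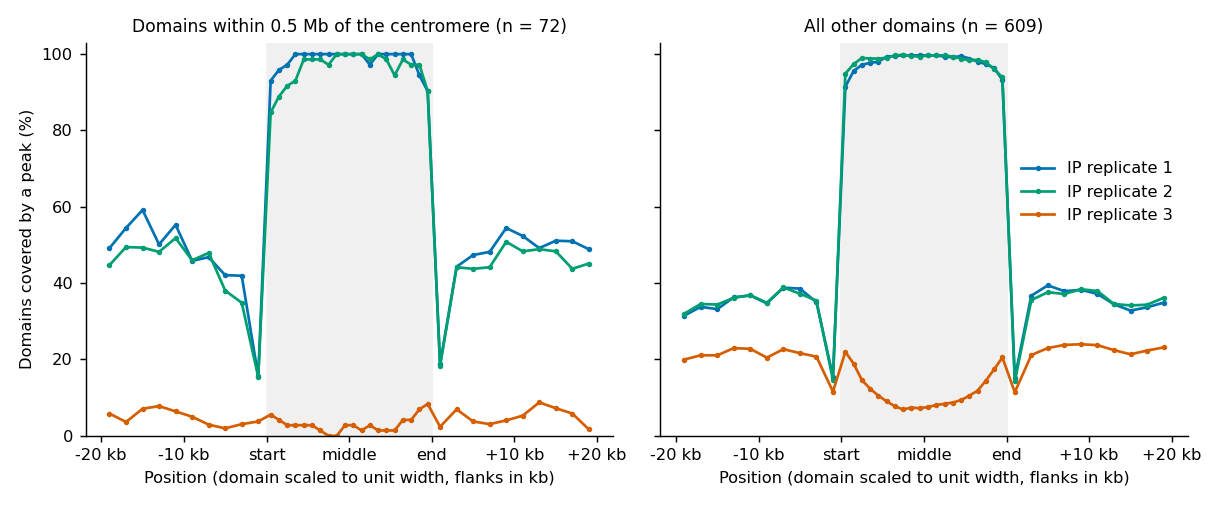
Share of domains covered by a peak (percent, vertical axis) along the domain, scaled to unit width (grey), and over 20 kb on both sides, for the 3 IP replicates; left, the 72 domains within 0.5 Mb of a centromere point, right, the other 609. Replicates 1 and 2 fill the domains because they chose them; replicate 3 averages 2.99% inside the domains on the left and 11.7% on the right, with a trough in the middle.

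Replicate 3 covered a larger share of the domains that had higher folds in the other lists, though some domains of low fold were also covered. When the domains were split into quartiles by replicate 2 fold, the bases covered by replicate 3 were 2.29% in the lowest quartile (folds 1.1 to 1.36), 5.85% and 7.55% in the middle ones and 26.9% in the highest (1.74 to 3.08). By replicate 1 fold the quartiles gave 3.74%, 7.61%, 9.11% and 22.0%. The Spearman rho between the covered share and the fold was 0.46 for replicate 2 and 0.32 for replicate 1, and that with domain width was 0.05 (n = 681 domains). Of the 53 domains with a fold of at least 2 in replicate 2, a limit set after the values were seen, 49 held a replicate 3 peak and 29 were covered to 50% or more. Of the 628 below it, 221 held a replicate 3 peak and 17 were covered to 50% or more.

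**Figure D3:**
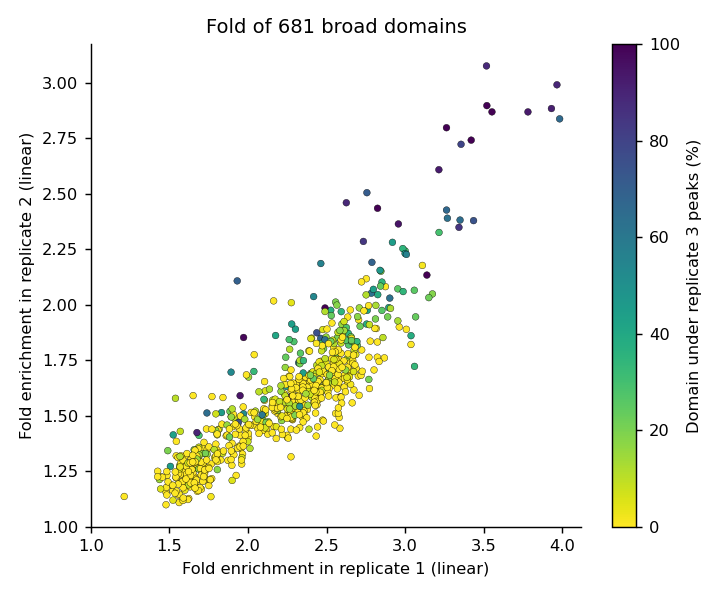
Linear fold enrichment of each of the 681 broad domains in replicate 1 (horizontal axis) and replicate 2 (vertical axis), coloured by the percentage of the domain under replicate 3 peaks. Domains of high replicate 3 coverage lie mostly, but not only, towards the upper right: coverage by bases was 26.9% in the highest quartile of replicate 2 fold and 2.29% in the lowest.

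A few domains were filled by replicate 3 from edge to edge, and all of those named here, chosen after their values were seen, lay on chromosome arms. On chromosome 1 a domain between 41549001 and 41566600, 17600 bp wide, had folds of 2.82, 2.43 and 1.96 in replicates 1, 2 and 3. On chromosome 3 a domain between 30191001 and 30207000, 16000 bp wide, had folds of 3.42, 2.74 and 2.56. On chromosome 7 the domain from 22342801 to 22357000, 14200 bp wide, had folds of 3.52, 2.90 and 2.51. Each was 1 peak in each of the 3 lists. The 46 domains covered to 50% or more occurred on all 12 chromosomes, but 19 (41.3%) lay on chromosomes 1 to 3, against 28.0% of all domains. Their median distance from the centromere point was 11.5 Mb, against 7.34 Mb for all domains. Within 2 Mb lay 1 of them (2.17%), against 21.3% of all domains. They were also narrow for domains, with a median of 12100 bp.

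Placement was measured from approximate centromere points of the Nipponbare reference genome, held to 0.1 Mb, which are general knowledge and not part of the files. They were set down with the broad peaks already known and were not adjusted to them, but no source used here states which build the files follow, so every distance assumes that the points hold for the files' coordinates, and the broad peaks themselves are no check of that. On these points, domains were denser near centromeres than elsewhere. Within 2 Mb of a centromere point lay 145 domains, 21.3% (Wilson 95% interval 18.4% to 24.5%), against 9.93% of all regions shared by replicates 1 and 2 and 12.9% of the chromosomes' span. Of all peaks of replicates 1, 2 and 3, 10.8%, 10.1% and 7.26% lay there. The excess came from the innermost part: the density was 9.33 domains per Mb within 0.25 Mb, 2.67 from 0.25 to 0.5 Mb, 2.33 from 0.5 to 1 Mb and 1.88 from 1 to 2 Mb, and farther out it stayed between 1.45 and 1.84 per Mb. Other shared regions showed the opposite order, with 79.3 per Mb within 0.25 Mb and 158 per Mb beyond 10 Mb. The centromere points are held to 0.1 Mb, and their true error in these coordinates is unknown. The innermost density was 7.5 and 9.5 per Mb with all points moved down or up by 0.1 Mb. It was 2.67 and 3.5 per Mb with moves of 0.5 Mb. The distance classes and these moves were set after the placement had been seen.

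**Figure D4:**
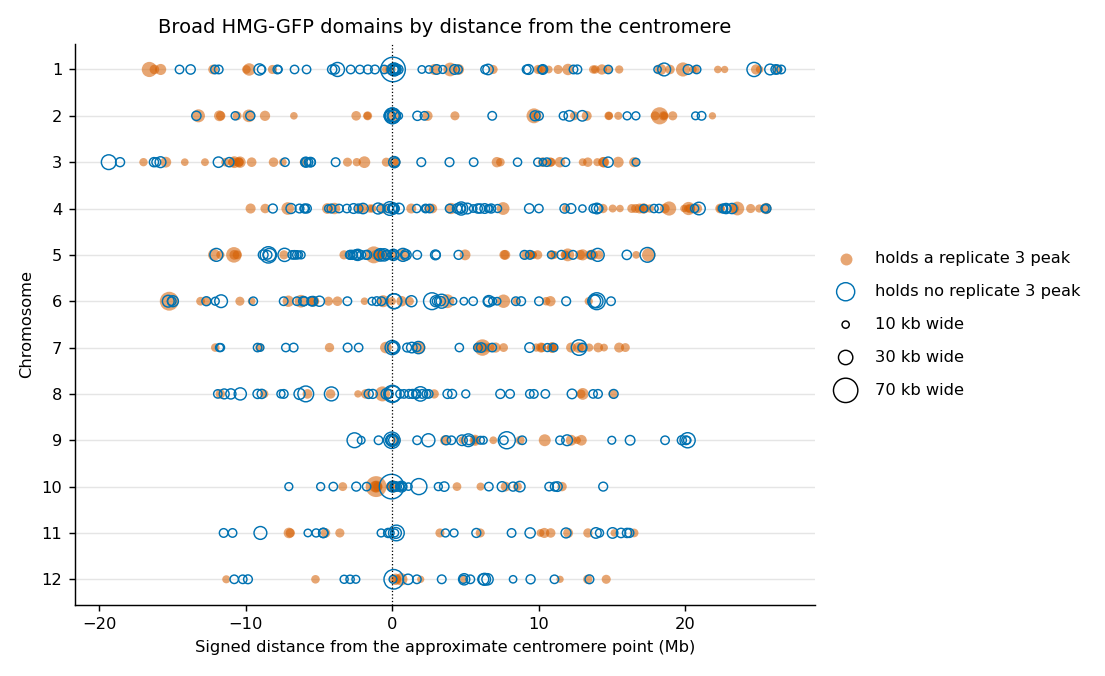
Broad domains on the 12 chromosomes (rows) by signed distance from the approximate centromere point in Mb; circle area grows with domain width, and filled circles hold a replicate 3 peak. Large open circles stack at 0 on most chromosomes: 56 domains lay within 0.25 Mb of a centromere point, 8 of them with a replicate 3 peak.

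All 12 chromosomes had a domain within 0.25 Mb of the centromere point, from 2 on chromosome 11 to 8 on chromosomes 1 and 10. Within 0.5 Mb, domains took up the most sequence on chromosome 1 (226 kb), chromosome 10 (198 kb) and chromosome 2 (182 kb), and the least on chromosomes 3 (75.8 kb) and 6 (76.6 kb). Replicate 3 had a peak in 39.6% of all domains and in 14.3% of the 56 within 0.25 Mb. In 10 of the 12 chromosomes the domain nearest to the point held no replicate 3 peak, which is near that local share. The exceptions were chromosome 3, where the domain from 19495201 to 19512200 was covered to 27.1%, and chromosome 6, where the domain from 15265001 to 15277600 was covered to 34.9%. Both had folds above the domain median, 2.64 and 1.82 on chromosome 3 and 2.59 and 1.97 on chromosome 6 in replicates 1 and 2. So did the nearest domains on chromosome 4 (2.61 and 1.63) and chromosome 5 (2.51 and 1.72), in which replicate 3 had no peak.

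The 2 widest domains of all stood at centromeres. The widest, 71000 bp on chromosome 10 from 8098401 to 8169400, was 1 peak of 68800 bp in replicate 1 and 1 peak of 70800 bp in replicate 2, with folds of 1.66 and 1.29, and replicate 3 had no peak in it. The next, 70800 bp on chromosome 1 from 16767001 to 16837800, was 1 peak of 65200 bp in replicate 1 and 1 of 70600 bp in replicate 2, with folds of 1.80 and 1.35 and again no replicate 3 peak. They lay 30.6 and 67.0 kb from their centromere points. The domain of 49000 bp on chromosome 12 had folds of 1.80 and 1.30, no replicate 3 peak, and a distance of 115 kb. On chromosome 8 a domain of 40000 bp, between 12920201 and 12960200, had folds of 2.14 and 1.47, no replicate 3 peak, and a distance of 20.2 kb. Of the 20 widest domains 8 were within 0.5 Mb of a centromere point, against 72 of all 681 (10.6%), and none of those 4 described here was met by replicate 3.

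The other 6 of the 10 widest domains lay on the arms or in the pericentromeric flanks. On chromosome 10 the domain from 7056801 to 7111600, with 54800 bp, joined 3 broad peaks of replicate 1 and 2 of replicate 2, and replicate 3 covered 4.01% of it. The domain on chromosome 6 from 46001 to 92600, 46600 bp, had the same edges in replicates 1 and 2, folds of 1.62 and 1.19, and 9.87% under replicate 3. On chromosome 2 the domain from 31861601 to 31901600, 40000 bp, had folds of 2.54 and 1.66 and 5.0% under replicate 3. The domain on chromosome 5 from 11115401 to 11154600, 39200 bp, had folds of 2.18 and 1.45 and 4.59% under replicate 3. Replicate 3 had no peak in the domain of 39400 bp on chromosome 9 from 10629401 to 10668800 or in that of 38800 bp on chromosome 6 from 29271601 to 29310400. Among the 20 widest, 14 held no replicate 3 peak, against 411 of all 681 (60.4%). The most replicate 3 bases among these 20 were 5400 bp in the domain on chromosome 7 from 18269401 to 18306800.

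The centromeric domains had larger widths, lower folds and less replicate 3 coverage than the rest. The 72 domains within 0.5 Mb of a centromere point had a median width of 17600 bp, against 14000 bp for the other 609. Their median folds were 1.90 in replicate 1 and 1.35 in replicate 2, against 2.33 and 1.59. Replicate 3 met 14 of the 72 (19.4%) and covered 2.07% of their bases, against 256 of 609 (42.0%) and 11.1%. This went along with a general lack of replicate 3 peaks around centromeres. Within 0.25 Mb, replicates 1, 2 and 3 covered 44.4%, 41.5% and 5.55% of all sequence, and beyond 10 Mb 33.8%, 36.1% and 31.1%. At every distance replicate 3 covered less of the domains than of the other shared regions of at least 5 kb. The shares ran from 1.45% against 5.33% within 0.25 Mb to 16.3% against 50.1% beyond 10 Mb. These sets are not matched on width: 3712 of the other regions measured 5 to 10 kb, a width that replicate 3 covered to 39.1% genome-wide. The parts of width and of the different peak number of replicate 3 in these differences were not tested.

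**Figure D5:**
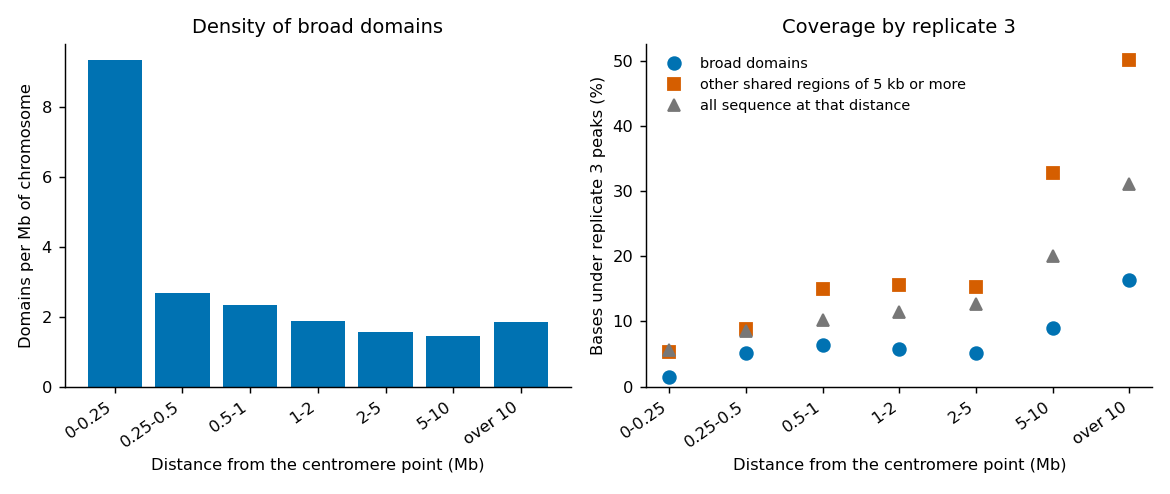
Left, broad domains per Mb of chromosome by distance from the centromere point in Mb (bars, axis from 0); right, percentage of bases under replicate 3 peaks in broad domains (circles), other shared regions of 5 kb or more (squares) and all sequence at that distance (triangles). Density was 9.33 per Mb within 0.25 Mb and at most 2.67 elsewhere, and circles lie below squares at every distance. Most regions behind the squares are 5 to 10 kb wide, so circles and squares are not matched on width.

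The centromeric excess rested on replicates 1 and 2. When replicate 3 was one of the choosing lists, the rule gave 48 domains with replicate 2 and 29 with replicate 1, and 0 of these lay within 2 Mb of a centromere point. Of the 157 broad peaks of replicate 3, 28 met a domain, 2 lay within 2 Mb of a centromere point and 0 within 0.5 Mb. All 157 were met by replicates 1 and 2, which covered 73.9% and 82.6% of their bases, but mostly in pieces, with a median of 3 peaks of replicate 1 and 2 of replicate 2 per broad peak of replicate 3. In the other direction replicate 3 covered 9.90% of the bases of the domains, as given above. The median fold of these 157 peaks in their own list was 2.13, against 2.03 for all replicate 3 peaks.

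At a distance of 100 kb most domains stood alone, and the share in clusters was higher near centromere points. The median gap to the next domain on the same chromosome was 310 kb, with quartiles of 102 and 688 kb. Taking domains within 100 kb of each other as a cluster, 276 domains (40.5%, Wilson 95% interval 36.9% to 44.3%) fell into 111 clusters, of which 82 were pairs and 14 held 4 or more. The other 405 had no other domain within that distance. With a distance of 200 kb, 56.8% of domains were in a cluster. Within 2 Mb of a centromere point 64.8% of domains were in a cluster, against 34.0% elsewhere, and the median gap to the nearest domain was 45.2 kb, against 183 kb. Denser domains have closer neighbours, and clustering beyond the higher density near the points was not tested. The same shares were not computed for other shared regions. Of the 40 gaps under 10 kb, 17 were next to a domain within 0.5 Mb of a centromere point. The smallest gap was 800 bp, which is also the smallest gap between any peaks of the lists. Of the 14 clusters with 4 or more domains, 11 lay within 1 Mb of a centromere point.

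The 4 clusters with 5 or more domains all lay at centromere points, and the fifth named here is the one with the longest span of 10 clusters of 4. On chromosome 10, 9 domains stood between 8056601 and 8541400 and filled 40.8% of 485 kb, with 2.33% of their bases under replicate 3. On chromosome 1, 7 domains between 16745001 and 16957800 filled 85.6% of 213 kb without any replicate 3 peak. The gaps between those 7 measured 1000 to 10400 bp, and their folds ran from 1.52 to 1.80 in replicate 1 and from 1.16 to 1.35 in replicate 2. On chromosome 9, 6 domains between 2649801 and 2885400 filled 55.9% of 236 kb, again without a replicate 3 peak. On chromosome 2, 5 domains between 13611001 and 13759600 filled 92.2% of 149 kb, with 0.292% of their bases under replicate 3. On chromosome 12, 4 domains between 11965001 and 12224400 filled 36.4% of 259 kb. On chromosomes 1 and 2 broad peaks thus followed each other with little open sequence between them. On chromosomes 10, 9 and 12 much of the span of the cluster lay between domains. Of the 14 clusters with 4 or more domains, the 11 within 1 Mb of a centromere point had 0% to 11.7% of their domain bases under replicate 3. The other 3 lay on chromosomes 1, 6 and 7, with 15.7%, 21.2% and 29.8%. The share of the cluster's span filled by domains overlapped between them, 23.7%, 34.1% and 42.9% in those 3 and 26.3% to 92.2% in the 11 near centromeres.

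Chromosomes differed in the density of domains. It was highest on chromosomes 4 and 5, with 2.79 and 2.64 domains per Mb, and lowest on chromosomes 12 and 11, with 1.13 and 1.31, around 1.82 per Mb for all. Other shared regions were not counted by chromosome, so these differences cannot be called particular to the domains. Replicate 3 covered 18.9% of domain bases on chromosome 3, 14.3% on chromosome 1 and 11.6% on chromosome 2, the 3 chromosomes it also covered most as a whole (29.2%, 27.6% and 26.1%), and least on chromosome 8 (2.97%, against 18.0% of the chromosome). On chromosome 4 the density was the same before and after the centromere point, 2.78 and 2.79 per Mb, but replicate 3 covered 5.86% of domain bases before it and 12.1% after it. On chromosome 10 the densities were 1.46 and 1.87 per Mb and the covered shares 3.43% and 7.57%, while replicate 3 met 6 of 12 domains before the point and 6 of 28 after it. In the last 10 Mb of chromosomes 1, 2 and 3 there were 19, 16 and 20 domains, with 19.4%, 22.2% and 18.8% of their bases under replicate 3. The first 2 Mb of chromosomes 11 and 12 held 2 and 3 domains. The longest gap between neighbouring domains was 4.59 Mb on chromosome 12, from 2064801 to 6659400.

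Domains were also denser at the very ends of chromosomes, although on few domains. The last 100 kb at the 24 ends held 10 domains at 7 ends, or 4.17 per Mb, against 1.82 per Mb for all. The terminal 1 Mb held 50, or 2.08 per Mb, which is 7.34% of domains on 6.43% of the span. Other shared regions were not counted at the ends, so the rise cannot be called particular to the domains. The 10 domains had a median width of 24500 bp, and replicate 3 covered 4.50% of their bases. On chromosome 1 a domain between 43256401 and 43269400, 13000 bp wide, ended at the last base under any peak and had folds of 2.77 and 2.0 in replicates 1 and 2. At the start of chromosome 6 a domain of 21800 bp, between 3401 and 25200, had folds of 1.93 and 1.23. At the end of chromosome 9 a domain of 32600 bp, between 22971801 and 23004400, had folds of 2.32 and 1.66. Replicate 3 had no peak in these 3 domains. Chromosome ends were taken from the last base under any peak, so the true distance to the end may be larger.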

How the data were processed

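Peak lists of the 3 IP samples were used as deposited; no value of the inputs was analysed. The labels' protocols state fixation in 1% formaldehyde for 30 min. The tools listed in the submitters' processing notes, without roles, are MACS2 2.1.2, Bowtie2 2.4.1, Trimmomatic 0.33 and bcl2fastq 2.19. The peak caller, its settings, the genome build and the use of the inputs are not stated in these sources. Per the file headers, each peak has a fold enrichment, a linear ratio set by the authors, and a p-value and FDR of the authors' caller. All positions lie on a 200 bp grid with gaps of at least 800 bp, so peaks may be joined windows, which would affect widths. Starts and ends both count from 0 in the files and from 1 here. No sequence or gene is assigned, since the gene table at hand is of an assembly that could not be matched to the files.

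Peaks of at least 10 kb of replicates 1 and 2 that overlapped were merged, and bases under replicate 3 peaks were counted. A region shared by replicates 1 and 2 is a merged set of overlapping peaks of both. Distances are from a domain's nearest base to the centromere point. Named domains are the 10 widest, those with most replicate 3 bases among the 20 widest, the nearest to each centromere point, the 5 largest clusters and the 3 nearest to chromosome ends; others are marked in the text. Members, lists and limits were chosen with earlier results of these data known. The interval code was tested on simulated data. The software was scipy 1.17.1, pandas 2.3.3 and numpy 2.4.6 under Python 3.11.15, with plots by matplotlib 3.10.9. Alternatives were other width limits, a reciprocal overlap of 50%, a stricter FDR, moved centromere points, other distances and each replicate left out of the choice.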

Additional observations from a re-analysis of the deposited data

Results flagged for a closer look

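The sequence named ChrSy, which lies outside the 12 chromosomes and entered no count of domains, held 1 peak of at least 10 kb in replicate 1 (11200 bp) and 1 in replicate 2 (11800 bp), and these overlap. Replicate 3 had 41 peaks there, the longest 4200 bp. It was picked out because it is signal in data that the comparisons do not use.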

How the results depend on the processing

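A reciprocal overlap of 50% gave 672 domains and a -log10 FDR of at least 20 gave 658; the stricter FDR lowered the domains with a replicate 3 peak to 32.1%. With a width limit of 8 kb there were 1051 domains, 12.6% covered to 50% or more by replicate 3 and 50.5% within 100 kb of another. With 15 kb there were 187, of which 51.3% held a replicate 3 peak, 2.67% were covered to 50% or more, 26.2% lay within 2 Mb of a centromere point and 26.2% within 100 kb of another. The share near centromeres was 14.7% within 1 Mb and 37.4% within 5 Mb, where 6.43% and 31.6% of the span lie. With centromere points moved up or down by 0.5 Mb it was 20.9% or 21.4% within 2 Mb, but the density within 0.25 Mb was 3.5 or 2.67 per Mb, against 9.33, and 65 or 36 domains lay within 0.5 Mb, against 72; these inner values were rerun after seeing the data, and the nearest domain of each chromosome was not. Clustering was 28.3% at 50 kb and 56.8% at 200 kb. With replicate 1 or 2 left out of the choice, and replicate 3 choosing in its place, there were 48 and 29 domains; 100% and 100% of them were met, and 100% covered to 50% or more, by the left-out list, 0% lay within 2 Mb of a centromere point, and 8.33% and 0% were within 100 kb of another. The cause of that difference was not tested. No paired analysis was possible because the inputs have no values here and the IPs form 1 group. Library depth is unknown, so a domain without a replicate 3 peak is one not called in that list, not one shown to lack the protein.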
